A study of Mus musculus with 4 samples.

Results

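The genes described here make, desaturate, elongate and esterify fatty acids and sterols: Acly, Fasn, Scd1, Scd2, Elovl6, Elovl3, Elovl4 and Soat1. They were chosen by name, and every probe set that the array annotation assigns to 1 of these symbols alone was taken. That gave 16 of the 22626 probe sets that are not controls, covering 7 of the 8 genes. Soat1, which encodes an enzyme that esterifies cholesterol, had no such probe set and is not analysed here. Fatty acid synthesis starts in the cytosol from citrate, which ATP citrate lyase (Acly) cleaves to acetyl-CoA, and fatty acid synthase (Fasn) then builds palmitate. Elongases of the Elovl family lengthen the chain, and stearoyl-CoA desaturases (Scd) introduce a double bond. In skin these products go into sebum, which the sebaceous gland attached to each follicle secretes, and into the lipids of the epidermal barrier. Mice that lack Scd1 have small sebaceous glands and lose hair.

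Expression was measured on 1-colour Affymetrix arrays in dorsal hair follicles of male mice at postnatal day 14. The homozygous group, HrHos / HrHos, held replicates 2 and 3, and the control group, +/HrHos, held replicates 3 and 4. The titles of the control samples read WT, but the design text names heterozygotes as the controls, and it was followed. By that text both groups carry at least 1 mutant allele of Hr, and no wild-type sample is analysed here. Hr is the gene of a nuclear corepressor needed for hair cycling. The animals were N1 littermates from a Hos:HR-1 father and a +/HrHos mother, herself an offspring of an HR-1 and an ICR mouse, so ICR alleles segregate among them. From 50 to 70 follicles were pooled per sample by laser capture from 8 micrometre sections, and the labels do not say whether the sebaceous gland was inside the outline. The labels conflict for homozygous replicate 3: its title puts it with the mutants, while its strain field gives +/HrHos. Its source name reads as mutant replicate 2, the number in the title of the other homozygous sample. Whether both homozygous arrays come from separate material is therefore not settled by the labels. The title was followed. Values grouped by the strain field stand beside the differences of the main fit's member probe sets and the list medians printed here. They are given where that grouping turned the direction or moved the size by over 1.5 times. Member probe sets too dim for the main fit, and genes named within the lists, are given by the title only. Nothing in the labels ties an array to an animal, so p-values reflect only how far these samples differ among themselves, and that spread could be technical.

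The arrays had a common scale, with median intensities from 43.5 to 52.6. The 2 heterozygous samples resembled each other least (r = 0.884 over probe sets, against 0.906 to 0.931 for the other pairs). All 18 hybridization spike-in probe sets were lower in both homozygous samples, by a mean of -1.05 on the log2 scale. The Gapdh signal at the 3' end over that at the middle, a ratio that grows as RNA shortens, was 17.2 and 30.1 in the heterozygous and 15.4 and 14.8 in the homozygous samples. Actb gave another order, 42.1 and 11.3 against 45.9 and 33.7, so heterozygous replicate 4 was the highest by Gapdh and the lowest by Actb. The part of these technical values in the results below was not tested. Hr was measured by 2 probe sets, at log2 differences of -0.34 and 0.19, and whether these probes lie inside the mutated part of the transcript is not given in the sources used here. Hair shaft and matrix markers were above the array median in all 4 samples for 10 of 10 kept genes, and inner root sheath markers for 7 of 7. The filter favours this, because only the brightest 60% of probe sets were kept. Of the 11 hair shaft and matrix markers on the array, Lef1 fell below it.

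Promoter sequences are shown for Acly and Fasn, which act in the same pathway. They lay on opposite sides of 0 in the genotype comparison, but neither passed the limma threshold. Each run gives the 250 bases before the start of the gene, 5′ to 3′ on the minus strand, from RefSeq on GRCm38.p6: chr11:100528001-100528250 for Acly and chr11:120824548-120824797 for Fasn. Capitals mark matches to the GC box GGGCGG, bound by Sp1, and to CCAAT, bound by NF-Y, on either strand.
Acly: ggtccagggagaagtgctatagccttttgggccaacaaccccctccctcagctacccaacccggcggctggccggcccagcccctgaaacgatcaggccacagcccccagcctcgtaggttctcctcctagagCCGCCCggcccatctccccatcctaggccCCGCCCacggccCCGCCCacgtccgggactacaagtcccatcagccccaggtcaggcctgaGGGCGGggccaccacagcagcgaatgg
Fasn: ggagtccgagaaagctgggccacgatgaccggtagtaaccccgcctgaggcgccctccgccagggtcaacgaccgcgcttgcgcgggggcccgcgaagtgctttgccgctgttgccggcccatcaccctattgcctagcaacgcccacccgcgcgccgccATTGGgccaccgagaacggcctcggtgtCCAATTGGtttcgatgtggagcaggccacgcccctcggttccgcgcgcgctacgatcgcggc
The Acly window held 4 GC boxes and no CCAAT, whereas the Fasn window held 3 CCAAT boxes and no GC box. Among 32841 promoter windows of the same length, 32.7% held a GC box and 33.9% a CCAAT. The 3 Fasn boxes lie between 90 and 55 bases before the start, and the last 2 overlap each other and an E-box, CANNTG, a letter pattern found in 66.2% of windows. Of the other measured genes, 2 had a window: Elovl4 held 2 overlapping GC boxes and 1 E-box, and Elovl6 held none of these motifs. No window of these 4 genes held the sterol regulatory element TCACNCCAC (both strands; 1.05% of windows) or the E-box CACGTG (6.02%). These are matches of letters only, and binding was not measured. Whether the motifs bear on the expression values was not tested.

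None of the measured genes passed the test between genotypes. Of the 16 probe sets, 12 were bright enough to be kept, which covered all 7 measured genes, and 0 of the 12 had a limma adjusted p under 0.05 (background 0%: 0 of 13576 kept probe sets). At an unadjusted p under 0.05 the count was also 0 of 12, against 2.3% of all kept probe sets. Homozygous minus heterozygous differences ran from -0.78 to 0.70 on the log2 scale, with 8 of 12 above 0 (background 51.7%) and a median of 0.18, beside a median of 0.01 over all kept probe sets. The direction of that median rested on homozygous replicate 3. Without it 4 of 11 lay above 0 and the median was -0.13, and with its strain field followed instead, 3 of 12 lay above 0 and the median was -0.17. The genotypes did not overlap in 6 of the 12 (background 26.9%), with the homozygous samples higher in 4 (background 13.6%) and lower in 2 (background 13.3%). With 2 samples against 2, an exact permutation test of a single value cannot give a p below 0.333. The 95% intervals, which are not adjusted for the number of probe sets, reached a median of 0.94 to either side. Differences smaller than that mostly had intervals that include 0. Larger ones could also miss the adjusted threshold, since the smallest limma unadjusted p of all kept probe sets, 0.00029, did not pass it.

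**Figure D1:**
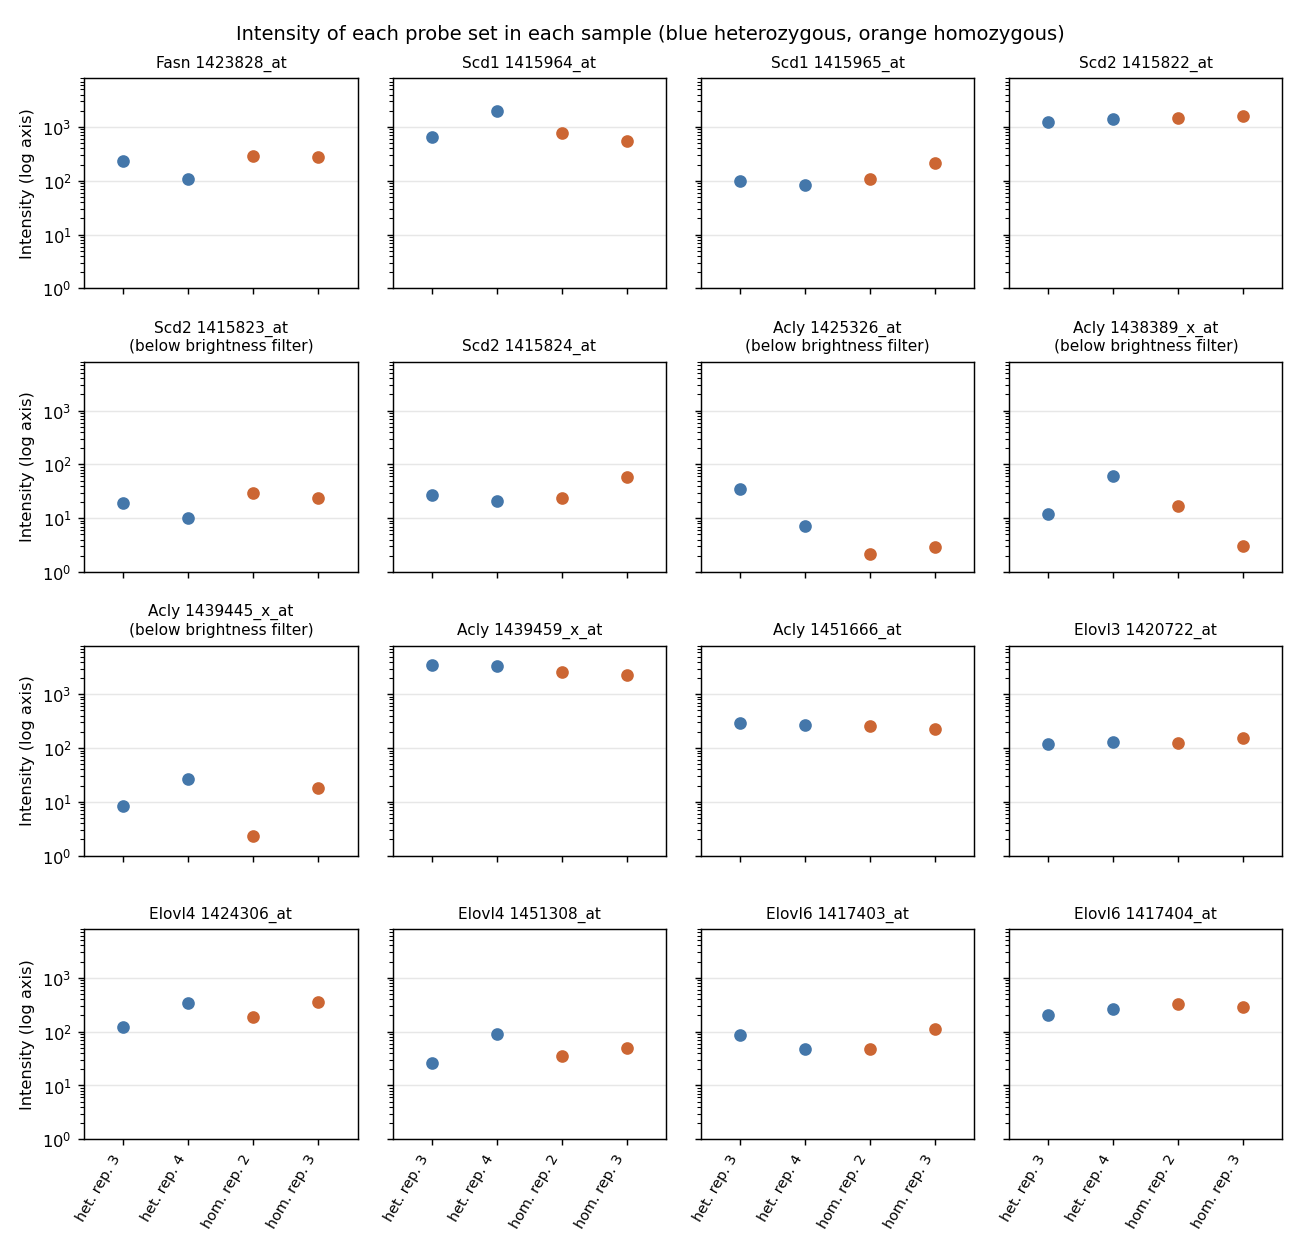
Intensity on a log axis of each of the 16 probe sets in the 2 heterozygous (blue) and 2 homozygous (orange) samples, 1 point per sample. Acly 1439459_x_at reads lower in both homozygous samples, Fasn reads lowest in heterozygous replicate 4, and the brighter Scd1 probe set reads highest there.

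**Figure D2:**
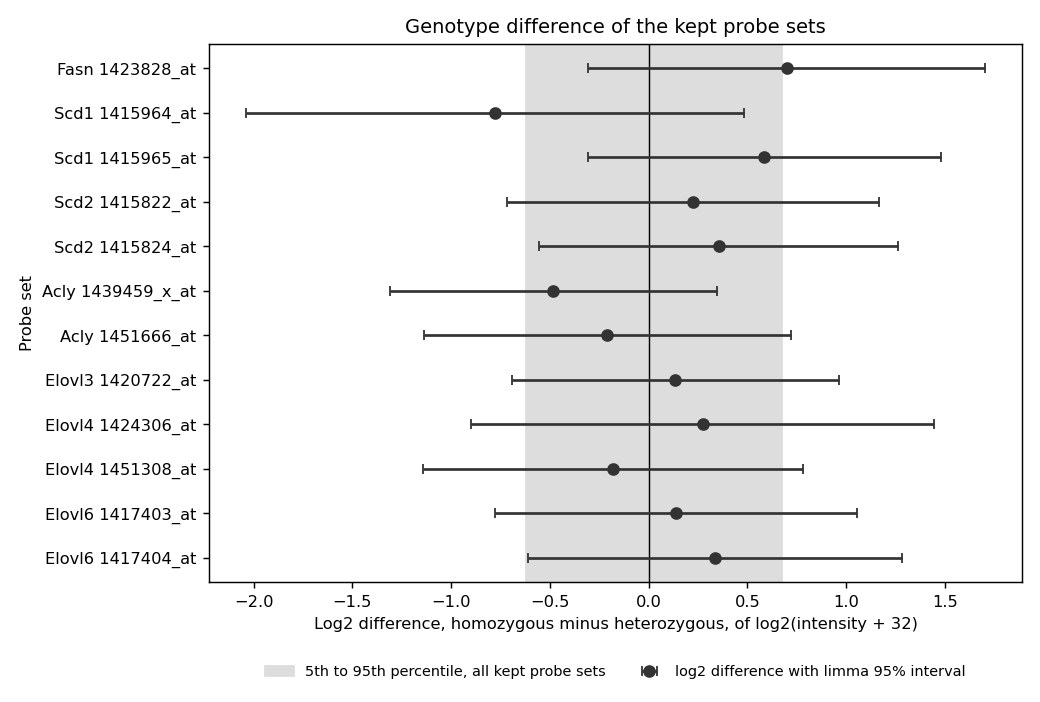
Log2 difference of each of the 12 kept probe sets (points) with its limma 95% interval (bars); the grey band spans the 5th to the 95th percentile of all kept probe sets, from -0.62 to 0.68. All 12 intervals include 0, and only Fasn and the brighter Scd1 probe set have a point outside the band.

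Acly and Fasn, the enzymes that supply acetyl-CoA and build palmitate, pointed in opposite directions. Fasn 1423828_at had intensities of 238.3 and 109.1 in heterozygous replicates 3 and 4, and of 290.7 and 279.5 in homozygous replicates 2 and 3. Both homozygous samples were above both heterozygous ones, but heterozygous replicate 3 was close to them and heterozygous replicate 4 stood apart below. The genotypes differed by 0.70 ± 0.46 on the log2 scale (SE; here and below n = 2 per group), or 1.62-fold with a 95% interval from 0.81-fold to 3.26-fold, and limma gave an adjusted p of 1.00. Without heterozygous replicate 4 the difference was 0.23, and without heterozygous replicate 3 it was 1.17 (limma adjusted p = 0.525).

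The brightest Acly probe set, 1439459_x_at, had intensities of 3472.1 and 3396.5 in heterozygous samples, against 2623.4 and 2285.7 in homozygous ones. Its groups did not overlap and its replicates lay closer together than the genotypes, at -0.48 ± 0.37 on the log2 scale (95% interval -1.31 to 0.35). Acly 1451666_at read 287.3 and 273.9 against 251.9 and 225.4, again without overlap, at -0.21 ± 0.42. Neither passed (limma adjusted p = 1.00 for both). The suffix of 1439459_x_at means that some of its probes can also match other transcripts. The 3 other Acly probe sets fell below the brightness filter, at intensities from 2.2 to 59.9. Fitted with no filter, and grouped by the title only, they lay at -0.57, -0.62 and -0.23. In 1 of the 3 both homozygous samples read below both heterozygous ones. Both kept Acly probe sets stayed below 0 in the 9 alternatives that could move their values, at -0.19 for 1439459_x_at and -0.05 for 1451666_at by the strain field.

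Stearoyl-CoA desaturases make monounsaturated fatty acids; Scd1 is the form known from sebaceous gland and Scd2 from other tissues including brain and young skin. The 2 probe sets of Scd1 disagreed. Scd1 1415964_at had 652 and 2019.5 in heterozygous replicates 3 and 4, with 782.5 and 552.2 in homozygous replicates 2 and 3, so heterozygous replicate 4 alone was high and the other 3 samples lay together. The log2 difference came to -0.78 ± 0.57, and without heterozygous replicate 4 it was 0.01; by the strain field it was -0.20. Without heterozygous replicate 3 it was -1.57 (limma unadjusted p = 0.00924, adjusted p = 0.408). Scd1 1415965_at read 98.9 and 84.4 against 108.1 and 212.7, with heterozygous replicate 4 lowest and homozygous replicate 3 alone high. Its difference was 0.58 ± 0.40, and -0.15 by the strain field.

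Scd2 1415822_at was among the steadiest of these probe sets. Its intensities were 1238 and 1417 for heterozygous samples and 1472.5 and 1635.6 for homozygous ones, with no overlap and a log2 difference of 0.22 ± 0.43. The 95% interval ran from -0.72 to 1.17. The difference stayed above 0 in the 9 alternatives that could move it, from 0.05 by the strain field to 0.32. The dimmer 1415824_at read 26.8 and 20.6 against 24.0 and 58.3, where only homozygous replicate 3 was high (0.35 ± 0.41; -0.22 by the strain field). The third, 1415823_at, was below the filter at 10.1 to 29.9.

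Of the elongases, Elovl6 extends palmitate to stearate, Elovl3 makes very long saturated and monounsaturated chains and is known from sebaceous gland and brown fat, and Elovl4 makes the ultra long chains of barrier ceramides. Elovl6 1417404_at had 207.4 and 265.2 in heterozygous samples and 328.1 and 282.3 in homozygous ones. These did not overlap and differed by 0.33 ± 0.43 (log2), a value that stayed above 0 in the 9 alternatives that could move it (0.18 to 0.49). The dimmer Elovl6 1417403_at read 87.8 and 47.3 against 48.1 and 111.7, overlapping, at 0.14 ± 0.41. Its sign turned without heterozygous replicate 4 (-0.16), without homozygous replicate 3 (-0.28) and by the strain field (-0.47).

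Elovl3 1420722_at had 119.9 and 128.2 in heterozygous samples and 123.5 and 156.7 in homozygous ones, for a log2 difference of 0.14 ± 0.37. The first 3 of these values lie close together and homozygous replicate 3 is the highest. Without that sample the difference was -0.0046, and by the strain field -0.10. The 95% interval ran from -0.69 to 0.96.

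Elovl4 varied widely within both genotypes. Elovl4 1424306_at had 120.1 and 345.2 in heterozygous replicates 3 and 4, with 187.2 and 350.3 in homozygous replicates 2 and 3, so 1 sample of each genotype was high. Its genotypes differed by 0.27 ± 0.53 (log2), against a gap of 1.31 between the heterozygous replicates. Elovl4 1451308_at read 26.3 and 91.2 against 35.8 and 50.5, highest in heterozygous replicate 4 and lowest in heterozygous replicate 3, at -0.18 ± 0.43 (-0.31 by the strain field). Neither sign was stable: 1424306_at turned to -0.38 without heterozygous replicate 3, to -0.13 without homozygous replicate 3 and to -0.35 by the strain field. In turn 1451308_at moved to 0.36 without heterozygous replicate 4.

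Set against the spread between replicates, the genotype difference was smaller than the wider of both replicate gaps in 8 of the 12 probe sets; over all kept probe sets this held for 83.9%. The 4 others were Scd2 1415822_at, Elovl6 1417404_at and both of Acly. The median gap between the heterozygous replicates was 0.25 for these 12 probe sets and 0.47 for all kept ones, and between the homozygous replicates 0.28 and 0.37.

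**Figure D3:**
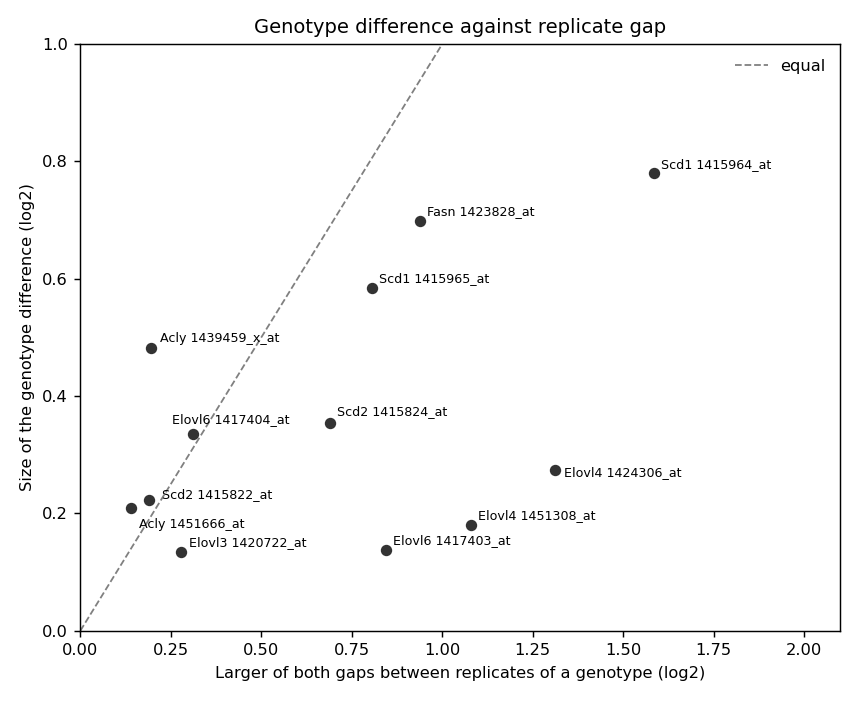
Size of the genotype difference of each kept probe set against the larger gap between replicates of 1 genotype, both as log2 values; the dashed line marks equality. The 4 points above the line are Scd2 1415822_at, Elovl6 1417404_at and both Acly probe sets, and Scd1 1415964_at and both Elovl4 probe sets have the widest gaps.

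Among 4278 genes with above-median spread, those closest in pattern over the 4 samples were taken by Euclidean distance of centred log2 values. For Fasn they were Ngdn (distance 0.06), Scrn2 (0.09) and Gatad1 (0.09), all low in heterozygous replicate 4. For Scd1 1415964_at they were Myhas (0.21), Stam (0.24) and Col4a5 (0.24), high in that sample. For Elovl4 1424306_at they were Mrtfb (0.08), Nbr1 (0.08) and Pank3 (0.12). Acly 1439459_x_at lay nearest to Ppp1r3f, Cyp2e1 and Xpo1 (all 0.16), and Elovl6 1417404_at nearest to Csrp2 (0.22), Cdh6 (0.24) and Pacrgl (0.25). Within the same genes, Scd2 lay nearest to Crym, Nosip and Smad9, and Elovl3 to Tnfrsf13c, Hspg2 and Zscan12. The genes searched all had an SD over the samples of at least 0.37, while Scd2 (0.16), Elovl3 (0.14), Elovl6 (0.24) and Acly (0.29) varied less, so distances for these 4 are large by construction and are not compared with the others. With 4 samples such a match is a description only.

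The enzymes that work beside these genes also held 0 probe sets past the limma threshold, on the brightest kept probe set of each gene and with the genes above left out of each list. Over all 8557 kept genes the median log2 difference was 0.01 and 51.3% lay above 0. Of 9 kept fatty acid synthesis partners 5 lay above 0 and 4 below (median 0.14; 0.05 to 0.21 with 1 sample left out, the lowest without heterozygous replicate 4). Acss2, which makes acetyl-CoA from acetate, read 407.1 and 315.5 against 211.6 and 249.5 (-0.58 ± 0.43). Isocitrate dehydrogenase Idh1 (-0.55), Mid1ip1, an activator of acetyl-CoA carboxylase (0.42), and the NADPH-producing Pgd (0.35) overlapped between genotypes. Acaca and Acacb, the acetyl-CoA carboxylases themselves, were below the filter.

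Of 12 elongation and desaturation partners 6 lay on each side of 0 (median 0.05; -0.05 with no filter, -0.02 by the strain field and -0.05 without heterozygous replicate 4). Those with the smallest p were the dehydratase Hacd2 (-0.62), the desaturase Fads2 (0.40), the elongase Elovl5 (-0.20) and the ketoreductase Hsd17b12 (0.27). Of these, Fads2 alone did not overlap, at 33.5 and 22.8 against 52.0 and 42.3. In the 14 kept regulators of lipid synthesis 10 lay above 0 and 4 below (median 0.32). Both homozygous samples were above both heterozygous ones in 3 of the 14 (13.6% of all kept probe sets) and below in 1 (13.3%). With no filter 11 of 17 lay above 0 (median 0.09), and on the mean of a gene's probe sets 8 of 14 (0.16). Pparg, Ppara and Ppard were below the filter. The 4 kept regulators with the smallest p, named here, all lay above 0. The transcription factor Srebf2 (0.53) and its escort protein Scap (0.47) overlapped between genotypes. The nuclear receptor Rxra (0.45) and the E-box factor Usf1 (0.36) did not overlap. The regulators' median ran from 0.05, without heterozygous replicate 4, to 0.29 when 1 sample was left out and was 0.19 by the strain field.

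Acyl-CoA synthesis and esterification genes were split, 6 above and 5 below 0 (median 0.07; -0.06 on the mean of a gene's probe sets). By the strain field 4 of 11 lay above 0 (median -0.18), without homozygous replicate 3 it was 4 of 12 (-0.16) and without heterozygous replicate 3 it was 3 of 10 (-0.04). Acsl4, an acyl-CoA synthetase, lay at 0.62, the monoacylglycerol acyltransferase Mogat1 at -0.55, the diacylglycerol acyltransferase Dgat2 at -0.20 and the phosphatase Lpin2 at -0.16. Of 10 sphingolipid and barrier lipid genes 7 lay above 0 (median 0.04). Without heterozygous replicate 3 that was 3 of 10 (median -0.20), without homozygous replicate 3 it was 5 of 11 (-0.16), without homozygous replicate 2 it was 5 of 11 (-0.04), and by the strain field 5 of 10 (-0.03). Smpd1, acid sphingomyelinase, read 206.7 and 194.5 against 419.3 and 433.8, higher by 0.98 ± 0.43 (limma unadjusted p = 0.0434, adjusted p = 1.00). Sptlc1, a subunit of the enzyme that starts sphingolipid synthesis, lay at 0.80, the ceramide synthase Cers4 at -0.69 and the lipoxygenase Aloxe3 at -0.52.

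Of 15 kept genes of cholesterol synthesis and uptake 11 lay above 0 (median 0.15; 0.24 by the strain field, and 0.07 without heterozygous replicate 3). Both homozygous samples were above both heterozygous ones in 5 of the 15 (13.6% of all kept probe sets) and below in 2 (13.3%). The 4 genes with the smallest p were among these, all enzymes of the pathway. Mvd (0.93), Pmvk (0.77) and Sc5d (0.62) lay on the high side and Lss (-0.60) on the low side. Of 8 lipid droplet and lipolysis genes 6 lay above 0 (median 0.23), with the droplet coat gene Plin2 at 595.3 and 676.2 against 1027.5 and 1043.5 (0.68 ± 0.45). Lipa, the lysosomal acid lipase, lay at 0.47, monoglyceride lipase Mgll at 1.00 with overlap, and the triglyceride lipase Pnpla2 at -0.33. Of 8 fatty acid binding and uptake genes 6 lay below 0 (median -0.40; 0.09 by the strain field, and -0.11 without homozygous replicate 3). They included the transporter Slc27a1 (-0.72), the keratinocyte binding protein Fabp5 (-0.41) and the scavenger receptor Cd36 (-0.82), whereas the transporter Slc27a4 lay at 0.62.

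**Figure D4:**
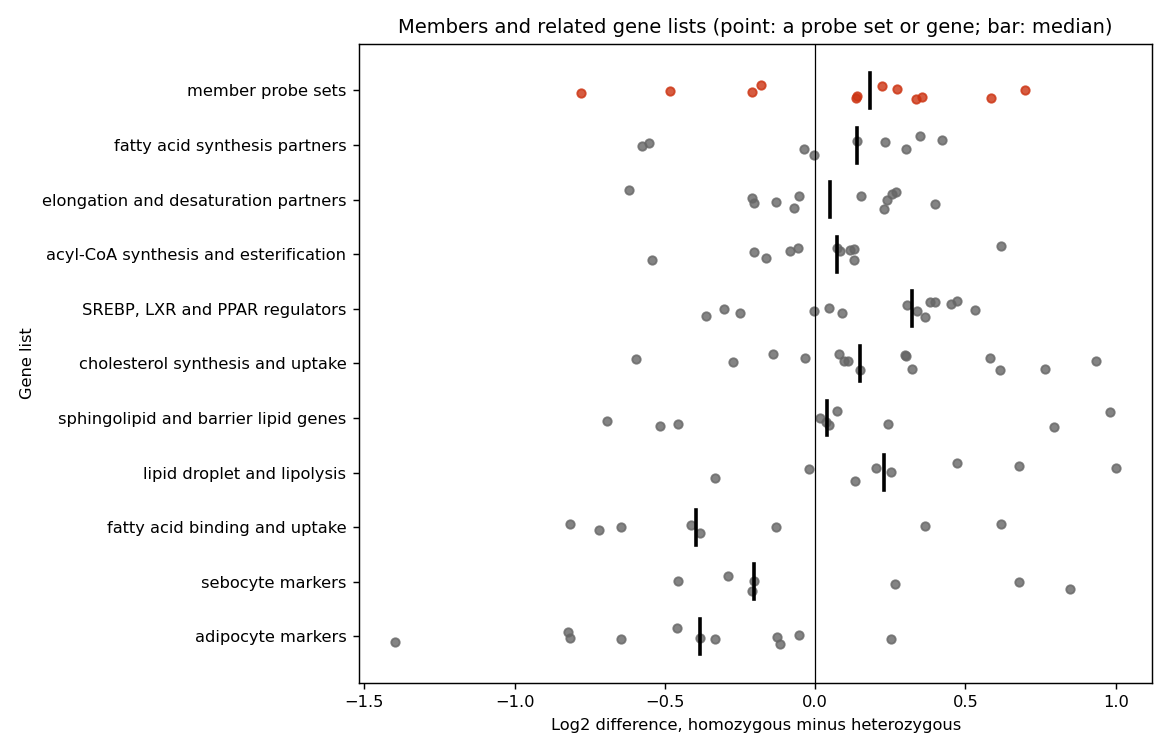
Log2 differences, homozygous minus heterozygous, of the 12 kept member probe sets (red) and of the genes in 10 related lists (grey, brightest probe set per gene), with bars at the medians. Values of every list fall on both sides of 0; adipocyte markers lie mostly below it, with 10 of 11 under 0, though without homozygous replicate 3 their median was -0.05 with 4 of 11 above 0.

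Sebocytes and adipocytes both express these enzymes, and in bulk samples fewer cells of a type and less RNA per cell cannot be told apart. Of 13 sebocyte markers 10 were on the array and 7 were kept, with 3 above and 4 below 0 (median -0.20; 0.20 by the strain field). When any 1 sample was left out that median ran from -0.12 to 0.10. The summed intensity of the 7 was 2924.4 and 3046.5 in the heterozygous and 4177.9 and 3217.6 in the homozygous samples. Above 0 were the dim sebaceous receptor gene Mc5r, at 9.2 and 53.6 against 102.6 and 52.9, Plin2 (0.68) and Mgst1 (0.27). Mgst1 was the brightest of the 7, at 1675 and 1703.5 against 2538 and 1634.6. Below 0 were the hydroxylase Fa2h (-0.46), the sebaceous duct keratin Krt79 (-0.29), Scd3 (-0.21) and Dgat2 (-0.20). The remaining 3, Pparg, Cidea and Acsbg1, were below the filter, and Pparg read 3.9 to 7.2 in all 4 samples. Of the 7 kept markers 5 were above the array median in all 4 samples, a count that the brightness filter favours.

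Adipocyte markers lay lower in homozygous samples for 10 of 11 kept genes (median -0.38; 0.16 by the strain field), with Pck1 below the filter. Without homozygous replicate 3 the median was -0.05 with 4 of 11 above 0, and without heterozygous replicate 3 it was -0.18 with 3 of 11 above. Their summed intensity was 14067.8 and 13168.8 in the heterozygous and 10711.1 and 6388.1 in the homozygous samples. Car3, a carbonic anhydrase of fat and muscle, lay at -1.40, the adipokine gene Adipoq at -0.82 and the lipoprotein lipase gene Lpl at -0.64. Of the 12 kept member probe sets 8 lay above 0 and 4 below it. Of those below 0, both of Acly were lower in both homozygous samples. Scd1 1415964_at and Elovl4 1451308_at lay on the same side of 0 as most of these markers. Both probe sets were highest in heterozygous replicate 4, and without that sample they lay at 0.01 and 0.36. The adipocyte sum was highest in heterozygous replicate 3, as were Car3 and Lpl, whereas the marker Cd36 was highest in heterozygous replicate 4. The part of adipocytes in the values of these probe sets was not tested.

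Markers of further cell types also varied between samples. Hair shaft and matrix markers lay above 0 for 8 of 10 kept genes (median 0.53; 0.17 by the strain field, and 0.32 to 0.72 with 1 sample left out, the lowest without homozygous replicate 3). Both homozygous samples were above both heterozygous ones in 6 of the 10 (13.6% of all kept probe sets), 0 had a limma adjusted p under 0.05, and the hair keratin genes Krt83 (1.35) and Krt35 (1.05) had the smallest p. Their summed intensity was 10701.1 and 11694 in the heterozygous and 15559.9 and 19296 in the homozygous samples, and Fasn, Scd1 1415965_at, Scd2 1415822_at and Elovl6 1417404_at were likewise higher in both homozygous samples. Inner root sheath markers lay below 0 for 5 of 7 (median -0.34; -0.03 by the strain field, -0.12 without homozygous replicate 2 and -0.13 without heterozygous replicate 3). Skeletal muscle markers, 3 kept genes of 8, summed to 181.4 and 450.9 in heterozygous replicates 3 and 4, against 131.1 and 247.1 in the homozygous samples, highest in the sample where Scd1 1415964_at was highest. Melanocyte markers summed to 1641.4 and 4117.8 against 3606.3 and 6887.8 over 6 genes, lowest in heterozygous replicate 3, as was Elovl4 1424306_at. Their median was 0.75 with 6 of 6 above 0, but -0.11 by the strain field, and it ran from 0.10, without heterozygous replicate 3, to 1.31 with 1 sample left out. Fibroblast markers summed to 12631.5 and 10615.8 against 6377.9 and 6646.2 over 10 genes. Of these 9 lay below 0 (median -0.53; -0.42 by the strain field, and -0.86 to -0.41 with 1 sample left out). Both homozygous samples were below both heterozygous ones in 5 of the 10 (13.3% of all kept probe sets), and 0 had a limma adjusted p under 0.05. Both kept Acly probe sets were likewise lower in both homozygous samples. Basal keratinocyte and outer root sheath markers had a median of 0.05, with 4 of 8 above 0, and -0.19 by the strain field. Without heterozygous replicate 4 it was -0.34 (2 of 8 above), without homozygous replicate 3 it was -0.17 (3 of 8), and without heterozygous replicate 3 it was 0.30 (6 of 8). Endothelial and leukocyte markers were sparse, with 4 of 6 and 2 of 6 kept. The part of these cell types in the values of the lipid genes was not tested.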

How the data were processed

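Probe set intensities on a linear scale were deposited by the authors; judged by their values, all arrays share a mean of 165 once 2% of probe sets is trimmed from each end, so they were scaled before deposit. Which software and background correction made them is not given in the sources used here. Per the labels' protocols, RNA was amplified and biotin-labelled before hybridization. The authors' scaling was kept and intensities were taken as log2(intensity + 32), which understates differences of dim probe sets. Of 22690 probe sets, 64 controls were left out and the brightest 60% of the others kept (13576). Of those others 20380 had 1 gene symbol, 691 several and 1555 none. Genotypes were compared with limma 3.58.1 in R 4.3.3 (lmFit, eBayes with an intensity trend, two-sided, Benjamini-Hochberg over all kept probe sets, threshold 0.05), checked on simulated data. Probe sets below the filter were taken from a fit without it. Members and lists were chosen with earlier results of these data known. All member probe sets are named, the 3 genes nearest each member in pattern, and up to 4 genes per list with the smallest p. For the sebocyte list all 7 kept genes are named, a choice made after their values were seen. Acaca, Acacb, Pck1, Pparg, Ppara, Ppard, Cidea, Acsbg1 and Lef1, named as below the filter, and the 2 promoters shown were chosen after their values were seen. Lists share some genes. The number of arrays limits the precision. Alternatives covered pseudocounts of 8 and 64, the filter, normalization, eBayes settings, probe set averaging, the strain field grouping and leaving out each sample.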

Additional observations from a re-analysis of the deposited data

How the results depend on the processing

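Across both pseudocounts and both array scalings, the 12 kept member probe sets gave 48 comparisons with their main values, all on the same side of 0. The eBayes settings and the fit with no filter leave these differences as they are and bear on p alone; with them included, none of 84 comparisons passed the limma threshold. The 0 calls over all probe sets also held there, with 0 called by robust eBayes (290 at an unadjusted p under 0.05) and on gene means (264). Grouping homozygous replicate 3 by its strain field turned the members' median to -0.17 and 5 probe sets: Scd1 1415965_at (-0.15), Scd2 1415824_at (-0.22), Elovl3 (-0.10), Elovl4 1424306_at (-0.35) and Elovl6 1417403_at (-0.47). That grouping, like leaving out a sample, leaves 1 lone sample in a genotype, whose spread is taken from the other samples.

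With each sample left out in turn, the members' median ran from -0.13 to 0.29 and their calls stayed at 0, while calls over all probe sets ran from 0 to 17, the 17 without heterozygous replicate 3 (1151 at an unadjusted p under 0.05). Turned values were Scd1 1415964_at at 0.012, Elovl3 at -0.0046, Elovl4 1424306_at at -0.38 and -0.13, Elovl4 1451308_at at 0.36, and Elovl6 1417403_at at -0.16 and -0.28. The ranges were -1.57 to 0.012 for Scd1 1415964_at, -0.0046 to 0.27 for Elovl3, -0.38 to 0.93 for Elovl4 1424306_at, -0.72 to 0.36 for Elovl4 1451308_at and -0.28 to 0.56 for Elovl6 1417403_at. List medians turned sign in 3 of the 97 comparisons of settings in which they differed from the main value, 8 of 18 by the strain field and 16 of 72 with a sample left out. The count of member probe sets above 0, added after seeing the data, was 8 of 12, 5 of 7 on gene means, 3 of 12 by the strain field and from 4 of 11 to 9 of 12 with a sample left out. The cause was not tested. No paired analysis was possible because the groups share only replicate number 3.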
